A study of Mus musculus with 32 samples.

Results

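In all, 8 annotated genes of the mouse genome that lie on the strand opposite an interferon or antigen presentation gene were described, out of 21880 genes with a row in the liver RNA-seq table. They are *Gm20496* (opposite *Psmb8*), *Gm19412* (*Tapbp*), *Gm11626* (*Ifi35*), *Art3* (*Cxcl10*), *1700084C06Rik* (*Tyk2*), *Gm28914* (*Ikbke*), *Bcl2l12* (*Irf3*) and *Gm17334* (*Irf1*). The 8 rows were picked by symbol from a list drawn up with measured values of the same table in view, and all 8 symbols were found once. Their levels are therefore given as a description, without a test. The 32 libraries were made from liver, 4 for each of 4 genotypes (WT, DKO, TKO and L-*Dnm1l*–KO) at each of 2 ages, 2M and 6M. *Dnm1l* encodes the mitochondrial fission GTPase DRP1, and *Mfn1* and *Mfn2* encode the mitofusins, which fuse outer mitochondrial membranes. L-*Dnm1l*–KO mice lack *Dnm1l*, DKO mice carry deletions of *Mfn1* and *Mfn2*, and TKO mice of *Dnm1l*, *Mfn1* and *Mfn2*. Floxed alleles were deleted by Cre under the albumin promoter, which drives it in hepatocytes. Deletion in the other cells of the liver was not measured here. The labels of the WT libraries name the *Dnm1l* line (Drp1), and whether WT mice were littermates of the DKO or TKO mice is not given in the sources used here. The only measurement used is the authors' mean normalized count of each gene over the 32 libraries, so every value pools the 4 genotypes and both ages, and no difference between genotypes, spread between mice or depth per library is given.

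Cells that sense foreign or misplaced nucleic acid activate the kinases TBK1 and IKKε, which phosphorylate IRF3 and start the production of type I interferon. Interferon then signals through receptor-bound Janus kinases such as TYK2 and raises a broad set of genes, among them chemokines, transcription factors of the IRF family and the machinery that cuts peptides and loads them onto class I MHC molecules. Natural antisense transcripts are RNAs read from the strand opposite another gene. When their exons overlap those of the other gene, only a count that uses the strand of each read can keep the RNAs apart. The library kit marks the strand, but the sources used here do not give the setting with which reads were counted. Without strand, reads of a row and of the gene opposite it cannot be told apart on the overlapping bases. With a setting opposite to that of the kit, every row of the table would hold reads from the other strand over its whole length, shared bases or not, and each level given would be that of RNA from the strand opposite the named gene. Which setting was used was not tested, so levels are given as those of rows of the table, and the strand of the RNA behind them is uncertain.

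For 5 of the 8 immune genes, and for *Tap2* beside *Psmb8*, the opposite row covers coding bases of the main transcript. The stretches that show this are printed from the GENCODE transcripts of GRCm38 in the sense of the immune gene, 5′ to 3′, with introns removed. *Ikbke* lies on the minus strand and the other genes on the plus strand. Capitals mark bases that are coding in the immune gene and exonic in the row on the other strand, whose own RNA would carry the reverse complement, and lower case marks up to 10 flanking bases of the same transcript.
*Psmb8* exons 2 and 3 (chr17:34199316-34199574): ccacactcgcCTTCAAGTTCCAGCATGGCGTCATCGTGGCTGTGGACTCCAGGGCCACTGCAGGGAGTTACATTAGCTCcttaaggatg
*Psmb8* exon 4 (chr17:34200141-34200257): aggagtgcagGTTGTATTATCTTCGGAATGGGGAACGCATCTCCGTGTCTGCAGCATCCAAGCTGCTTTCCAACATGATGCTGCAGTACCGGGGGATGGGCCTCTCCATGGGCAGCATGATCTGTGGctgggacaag
*Tap2* exon 2 (chr17:34205310-34205449): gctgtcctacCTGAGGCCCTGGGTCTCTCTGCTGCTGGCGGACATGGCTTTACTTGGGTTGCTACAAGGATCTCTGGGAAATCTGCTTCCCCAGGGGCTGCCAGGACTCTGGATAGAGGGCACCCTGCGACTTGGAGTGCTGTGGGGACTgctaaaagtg
*Ifi35* exons 2 and 3 (chr11:101456576-101457337): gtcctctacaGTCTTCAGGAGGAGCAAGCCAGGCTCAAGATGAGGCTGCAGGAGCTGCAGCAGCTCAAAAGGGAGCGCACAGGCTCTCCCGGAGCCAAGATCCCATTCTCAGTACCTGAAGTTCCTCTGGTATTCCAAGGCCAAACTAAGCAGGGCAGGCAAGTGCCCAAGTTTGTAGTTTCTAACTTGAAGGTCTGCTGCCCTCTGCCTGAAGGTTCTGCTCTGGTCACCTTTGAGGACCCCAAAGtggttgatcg
*Irf1* exon 3 (chr11:53772839-53772938): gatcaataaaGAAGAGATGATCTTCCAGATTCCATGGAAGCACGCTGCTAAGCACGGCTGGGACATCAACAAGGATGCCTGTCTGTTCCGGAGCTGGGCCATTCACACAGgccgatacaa
*Tapbp* exons 1 and 2 (chr17:33919688-33919922): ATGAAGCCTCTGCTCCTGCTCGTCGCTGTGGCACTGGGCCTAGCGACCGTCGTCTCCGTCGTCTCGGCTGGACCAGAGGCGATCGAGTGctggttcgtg
*Tapbp* exon 3 (chr17:33920249-33920485): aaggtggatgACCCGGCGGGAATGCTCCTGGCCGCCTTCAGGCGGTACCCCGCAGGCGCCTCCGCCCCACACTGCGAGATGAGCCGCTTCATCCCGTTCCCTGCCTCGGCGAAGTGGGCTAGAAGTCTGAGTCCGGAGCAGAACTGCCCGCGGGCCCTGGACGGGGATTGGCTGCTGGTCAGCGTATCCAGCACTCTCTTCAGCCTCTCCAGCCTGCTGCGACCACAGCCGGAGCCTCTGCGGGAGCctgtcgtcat
*Ikbke* exon 17 (chr1:131260006-131260045): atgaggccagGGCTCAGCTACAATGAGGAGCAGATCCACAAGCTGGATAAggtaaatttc
Of the capitals, 69 and 117 bases belong to the 2 *Psmb8* stretches, 140 to *Tap2*, 237 to *Ifi35*, 100 to *Irf1*, 89 and 237 to the 2 *Tapbp* stretches and 40 to *Ikbke*. The *Psmb8* and *Tap2* stretches lie opposite the same row, *Gm20496*. In *Cxcl10* and *Irf3* the overlap holds no coding base, and in *Tyk2* it lies outside the exons of the main coding transcript.

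All 8 rows had a higher mean normalized count per kb of exon than the immune gene opposite them. Of the 8, 5 are annotated as noncoding. Over all pairs of a noncoding row and a coding gene described below, the noncoding row was higher in 85.4%. The 8 listed rows lay between 6.06 and 473 per kb with a median of 87.5. The immune genes opposite them lay between 0.164 and 8.12 per kb with a median of 1.55. The median over all rows of the table was 0.547 per kb. The ratio of row to immune gene per kb had a median of 56.6-fold (log2 5.82), from a log2 ratio of 3.78 for *Gm28914* over *Ikbke* to 9.31 for *Gm20496* over *Psmb8*. Without the length correction the median log2 ratio was 4.22, and *Gm28914* and *Ikbke* were level (0.02).

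**Figure D1:**
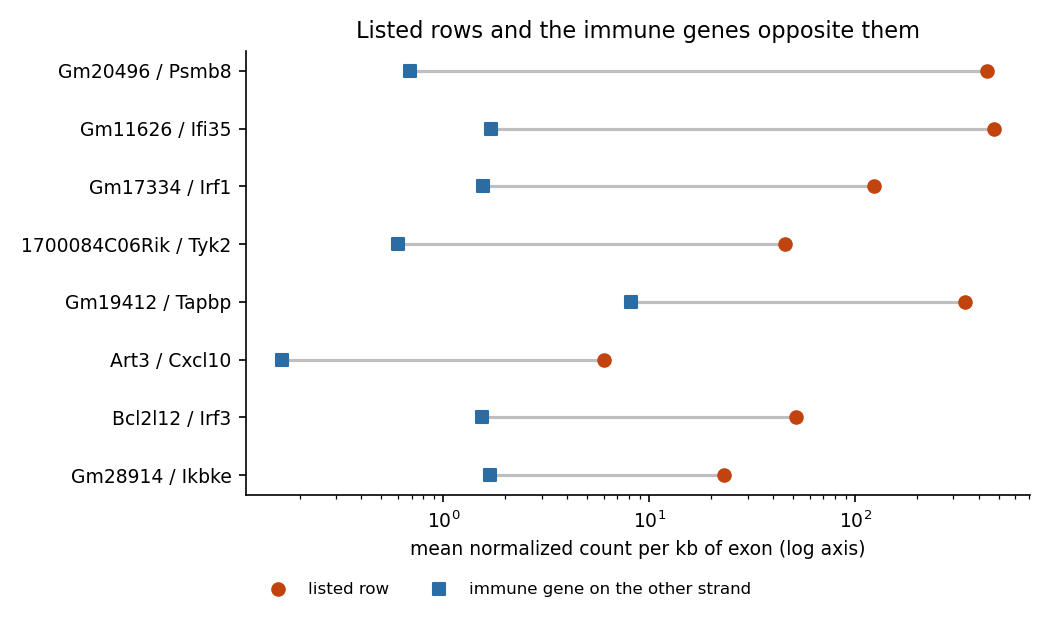
Mean normalized count per kb of exon (log axis, over 32 libraries) of each listed row (orange circles) and of the immune gene on the other strand (blue squares), joined by a line per pair. Every circle lies to the right of its square, and the distance is longest for *Gm20496* and *Psmb8* (438 and 0.690 per kb) and shortest for *Gm28914* and *Ikbke* (23.1 and 1.69 per kb).

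Antigen processing and presentation was represented by *Gm20496* and *Gm19412*. *Gm20496* (ENSMUSG00000092550; chr17:34199316-34205449 on GRCm38, minus strand) is annotated as antisense, with 4 exons and 663 exonic bases. Its mean normalized count was 290.4, or 438 per kb, and 99.2% of all rows of the table had a lower level per kb. *Psmb8*, which encodes a catalytic subunit of the immunoproteasome, had a mean normalized count of 2.33, or 0.690 per kb. The row was thus 635-fold higher per kb, a ratio above that of 94.9% of the opposite-strand pairs of a noncoding row and a coding gene. Over all transcripts of *Psmb8*, exons of *Gm20496* overlap its exons by 498 bases, or 75.1% of the row's exonic length. Of these bases 186 are coding. The exons of the main *Psmb8* transcript hold only those 186, and the other 312 lie outside them. The remaining 165 exonic bases of the row overlap *Tap2*, which encodes a subunit of the transporter that brings peptides into the endoplasmic reticulum. *Tap2* had a mean normalized count of 1.92, or 0.507 per kb. Over all transcripts, the whole exonic length of *Gm20496* thus lay opposite exons of 2 antigen presentation genes with levels below 1 per kb.

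*Gm19412* (ENSMUSG00000101438; chr17:33919279-33920485, minus strand) is also annotated as antisense, with 2 exonic blocks and 1060 exonic bases. It had a mean normalized count of 362.2, or 342 per kb, above 99% of all rows per kb. *Tapbp* encodes tapasin, which holds class I MHC molecules at the peptide transporter, and was the immune gene with the highest level per kb of the 8, with a mean normalized count of 29.5, or 8.12 per kb. The row was 42.1-fold higher per kb, above 57.9% of such pairs. The overlap of 904 bases, 360 of them coding in some transcript of *Tapbp*, takes up 85.3% of the row. In addition, 47 bases of *Gm19412* lie opposite the zinc finger gene *Zbtb22*, at 1.75 per kb.

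**Figure D2:**
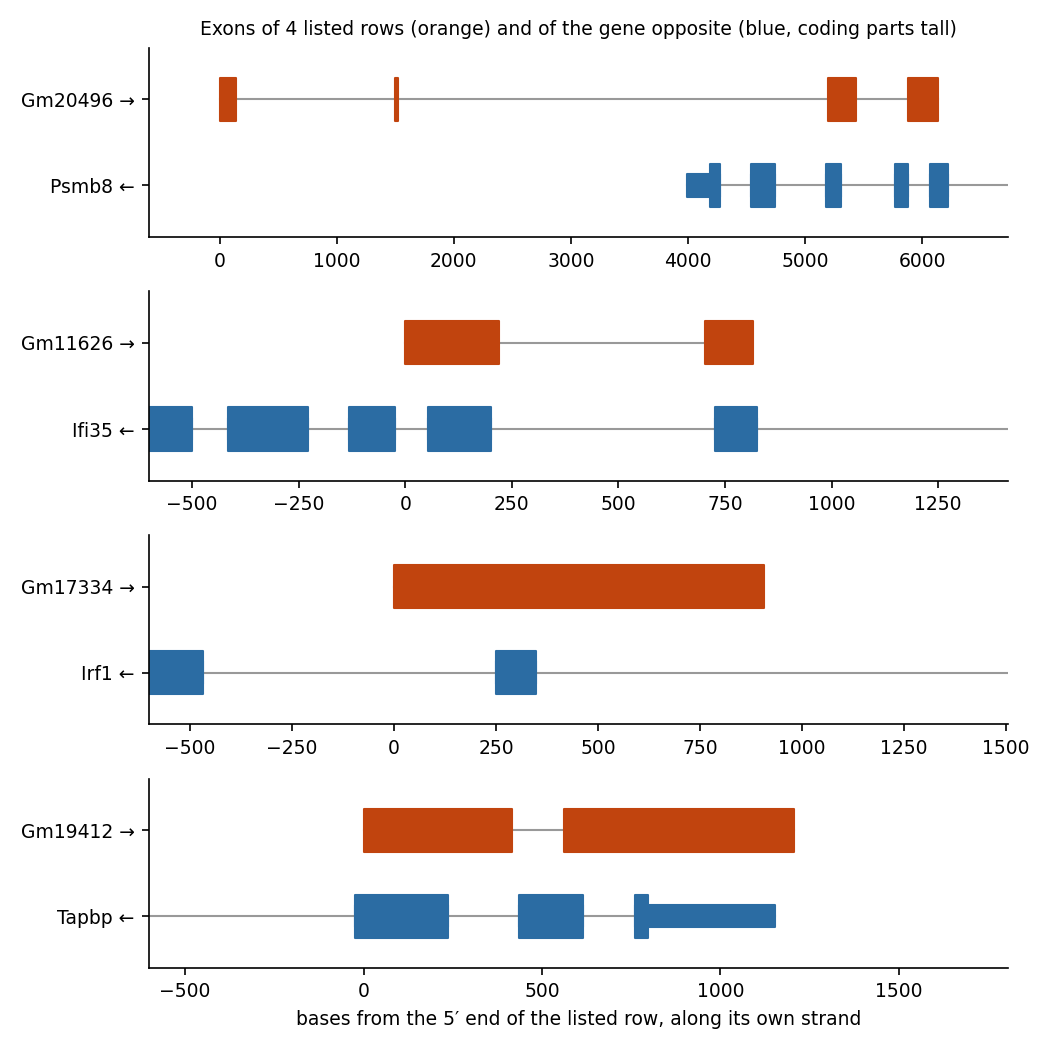
Exons of 4 listed rows (orange, upper line) and of the main coding transcript of the immune gene opposite (blue, lower line, coding parts taller), with the distance in bases from the 5′ end of the row along its own strand on the x axis. Over all transcripts of the immune gene, *Gm20496*, *Gm11626* and *Gm19412* lie mostly opposite exons (75.1%, 87.1% and 85.3% of their length). *Gm17334* lies mostly opposite introns of *Irf1* (85.1%). The transcripts drawn share fewer bases with the row. These are 186 of 663 for *Gm20496*, 237 of 333 for *Gm11626*, 682 of 1060 for *Gm19412* and 100 of 907 for *Gm17334*.

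Interferon-stimulated genes opposite a listed row were *Ifi35* and *Cxcl10*. *Ifi35* encodes an interferon-induced leucine zipper protein that binds NMI. *Gm11626* (ENSMUSG00000086347; chr11:101456576-101457390, minus strand), an antisense gene of 2 exons and 333 exonic bases, had a mean normalized count of 157.4 and the highest level per kb of the 8 rows, 473, above 99.3% of all rows. *Ifi35* had a mean normalized count of 2.95, or 1.71 per kb. The ratio of 276-fold per kb lay above that of 88.0% of the noncoding and coding pairs, and the overlap of 290 bases covers 87.1% of the row.

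*Cxcl10* encodes a chemokine that draws in T cells bearing CXCR3. Its mean normalized count was 0.369, and its level of 0.164 per kb was the lowest of the 8 immune genes. *Art3* (ENSMUSG00000034842; chr5:92331827-92414628, plus strand) is a coding gene of the ADP-ribosyltransferase family that spans *Cxcl10* completely. Its mean normalized count was 23.8, and with 3932 exonic bases its level of 6.06 per kb was the lowest of the 8 rows and above that of 84.6% of all rows. Only 133 bases, or 3.38% of its exonic length, lie opposite *Cxcl10*, in a noncoding part of exon 4 of 4. The 36.9-fold ratio per kb was above the higher-over-lower ratio of 82.2% of the pairs of 2 coding genes. At this count of *Cxcl10* the ratio moved with the setting, to 10.4-fold (log2 3.38) with 1 added to both counts and to a log2 ratio of 6.31 with the length of the longest transcript.

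The other 4 immune genes act in the signalling that makes or answers interferon. *Irf1* encodes a transcription factor that interferon-γ induces, and had a mean normalized count of 6.22, or 1.56 per kb. *Gm17334* (ENSMUSG00000091191; chr11:53772281-53773187, minus strand) is annotated as coding, has 1 exon of 907 bases and lies within *Irf1*. It had a mean normalized count of 111.8, or 123 per kb, above 97.7% of all rows. Per kb it was 78.8-fold above *Irf1* and above the ratio of 91.3% of coding pairs, and its log2 ratio of 6.30 became 5.40 with the length of the longest transcript. Of its length 14.9% (135 bases, 100 of them coding) lies opposite *Irf1* exons and 85.1% opposite *Irf1* introns.

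*Irf3*, the transcription factor that starts type I interferon production, had a mean normalized count of 5.28, or 1.53 per kb. *Bcl2l12* (ENSMUSG00000003190; chr7:44991222-44998712, minus strand), a coding gene named for its similarity to BCL2, is arranged head to head with it. Its mean normalized count was 102.4, or 51.8 per kb, above 95.5% of all rows. Per kb it was 33.8-fold above *Irf3*, a ratio larger than that of 81.0% of coding pairs. The exons of *Bcl2l12* and *Irf3* share 88 bases, 8 of them in exon 2 of 8 of the main *Irf3* transcript. A longer stretch of *Bcl2l12*, 572 bases, lies opposite the antisense gene *Gm15545*, which had 31.1 per kb.

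*Tyk2* encodes a Janus kinase of the type I interferon receptor and had a mean normalized count of 4.11, or 0.599 per kb. *1700084C06Rik* (ENSMUSG00000086016; chr9:21091755-21128393, plus strand) is an antisense gene of 2 exons and 750 exonic bases. Its mean normalized count was 34.2, or 45.6 per kb, above 95.1% of all rows. Its level was 76.2-fold above *Tyk2* per kb, and 68.7% of the noncoding and coding pairs had a lower ratio. The 554 bases opposite *Tyk2* make up 73.9% of the row. Another 192 bases lie opposite coding bases shared by *Raver1*, not analysed here, and *Gm38431*, which had 0.0499 per kb.

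*Ikbke* encodes IKKε, the kinase that acts with TBK1 on IRF3 and IRF7. *Gm28914* (ENSMUSG00000102027; chr1:131259507-131260553, plus strand), with 667 exonic bases, is annotated as antisense and had a mean normalized count of 15.4, or 23.1 per kb, above 92.6% of all rows. *Ikbke* had a mean normalized count of 15.2, or 1.69 per kb over 9018 exonic bases. The ratio per kb of 13.7-fold was the smallest of the 8, except with 1 added to both counts, where that of *Art3* over *Cxcl10* was smaller, and its log2 ratio of 3.78 became 3.16 with the length of the longest transcript. It lay above that of 40.1% of the noncoding and coding pairs. The overlap is 159 bases, or 23.8% of the row, with 76.2% opposite *Ikbke* introns. A second antisense gene opposite *Ikbke*, *Gm28913*, had 41.2 per kb and shares 65 bases with it.

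A higher opposite row was common in this table. Pairs of a noncoding row and a coding gene with overlapping exons on opposite strands were kept where either gene averaged at least 1 normalized count. Over these 1965 pairs, the noncoding row was higher per kb in 1678, or 85.4%. The exact 95% binomial interval was 83.8% to 86.9%. It treats the pairs as independent, although some genes enter several pairs, and it measures no spread between mice. The order of levels is that of the rows as counted. Its reading as the strand of the RNA depends on the counting setting, which was not tested. The median ratio of these pairs was 27.4-fold (log2 4.78, quartiles 2.01 and 6.73). The 5 listed rows annotated as noncoding had a median of 76.2-fold (log2 6.25), and 616 of the pairs, or 31.3%, lay at or above it. *Gm20496* and *Gm11626* lay above the upper quartile, and *1700084C06Rik*, *Gm19412* and *Gm28914* between the quartiles. The 3 coding rows, *Art3*, *Bcl2l12* and *Gm17334*, each exceeded the median of 7.17-fold between the higher and the lower gene in 1328 pairs of coding genes (log2 2.84, quartiles 1.36 and 4.54). Noncoding rows with a coding gene on the other strand had a median of 7.20 per kb over 2177 rows, and other noncoding rows 0.375 per kb over 5129 rows. Coding genes with no gene opposite had 0.369 per kb over 9895 rows, those with only a noncoding gene opposite 0.445 per kb over 2005 rows, and those with a coding gene opposite 3.004 per kb over 2627 rows.

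**Figure D3:**
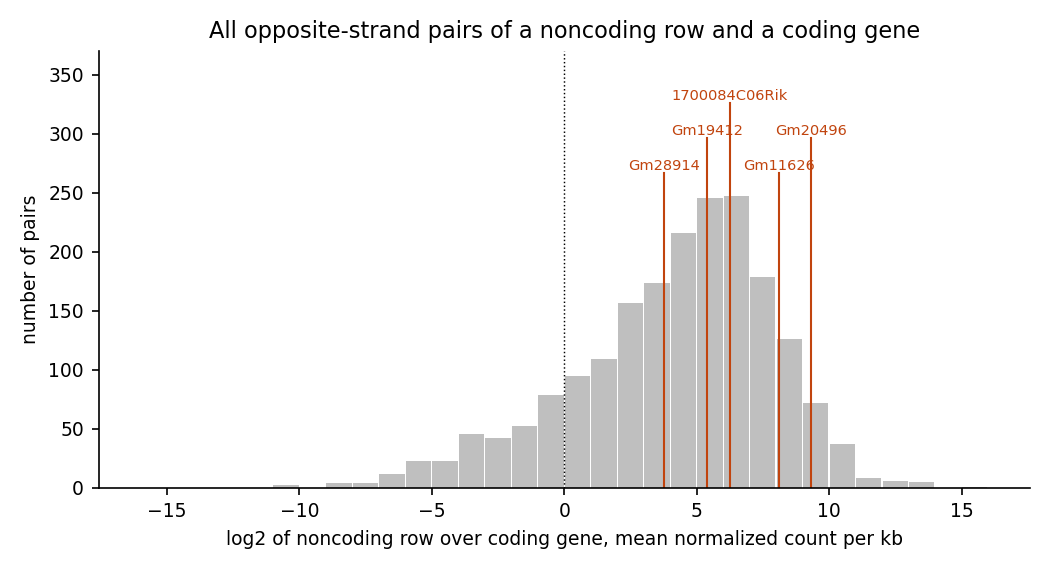
Histogram of the log2 ratio of noncoding row over coding gene, both as mean normalized count per kb, in 1965 opposite-strand pairs (x axis in bins of 1 log2 unit, y axis the number of pairs), with the 5 noncoding listed rows as orange lines. The lines lie between 3.78 and 9.31, right of the dotted line of equal level, within a distribution whose median is 4.78.

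The other genes of these pathways were taken from lists of sensing and signalling, interferon-stimulated, and antigen processing and presentation genes, of which 79 were in the table. For 28 of the 79, at least 1 row of the table overlapped their exons on the opposite strand. These 28 genes had a median of 1.55 per kb, the row opposite each had a median of 24.2 per kb, and the opposite row was higher in 20 of the 28. Of several opposite rows, the one with the highest mean normalized count was used. Taking the highest per kb instead replaced *Gm28914* with *Gm28913* opposite *Ikbke* and changed no other gene, with a median of 25.9 per kb and 20 of 28 higher. The 51 genes without such a row had a median of 0.671 per kb. The order was not the same in the 3 lists. Genes with and without an opposite row had medians of 1.55 and 0.645 per kb for sensing and signalling, 0.861 and 0.430 for interferon-stimulated genes, but 4.06 and 15.03 for antigen processing and presentation. With the 8 immune genes and *Tap2*, which also lies opposite a listed row, left out, the opposite row was higher in 11 of 19, with a median log2 ratio of 0.95 and a median of 6.19 per kb for the opposite rows. In these counts 2 pairs, *Parp9* with *Dtx3l* and *Psmb9* with *Tap1*, enter once in each direction. By list and with those 9 genes included, it was higher in 6 of 8 sensing and signalling genes, 8 of 10 interferon-stimulated genes and 6 of 10 antigen genes. Without them, the counts were 2 of 4, 6 of 8 and 3 of 7, with median log2 ratios of -0.56, 3.15 and -0.23.

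Some pathway genes that are not opposite a listed row had the same order of levels. *Usp18*, which encodes the protease that removes ISG15 from proteins, had 5.67 per kb against 197 per kb for *Gm44148*. *Dhx58*, which encodes the RNA sensor LGP2, had 0.252 per kb against 26.5 per kb for *Dhx58os*. The class I MHC gene *H2-Q4* had 4.81 per kb against 74.7 per kb for *Gm11131*. The choice of these 3 pairs was made with their values in view. The order was the reverse for *Irf5*, an interferon regulatory factor, with 110 per kb against 1.33 for *Tnpo3*, for *Pdia3*, a chaperone of class I MHC loading, with 14.7 per kb against 0.944 for *Catsper2*, and for *Erap1*, a peptide-trimming enzyme, with 38.7 per kb against 33.0 for *Cast*. At the lower end, the chemokine gene *Cxcl11* had 0.145 per kb and the GTPase gene *Gbp2* 0.118 per kb. Among genes without an opposite row the highest were *B2m*, the class I MHC light chain (117 per kb), *Calr* (42.6 per kb), a chaperone, and *H2-K1* (39.2 per kb), a class I MHC heavy chain. The lowest were *Irf8* (0.0877 per kb), *Ifi44* (0.0674 per kb) and *Mx1* (0.0570 per kb).

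**Figure D4:**
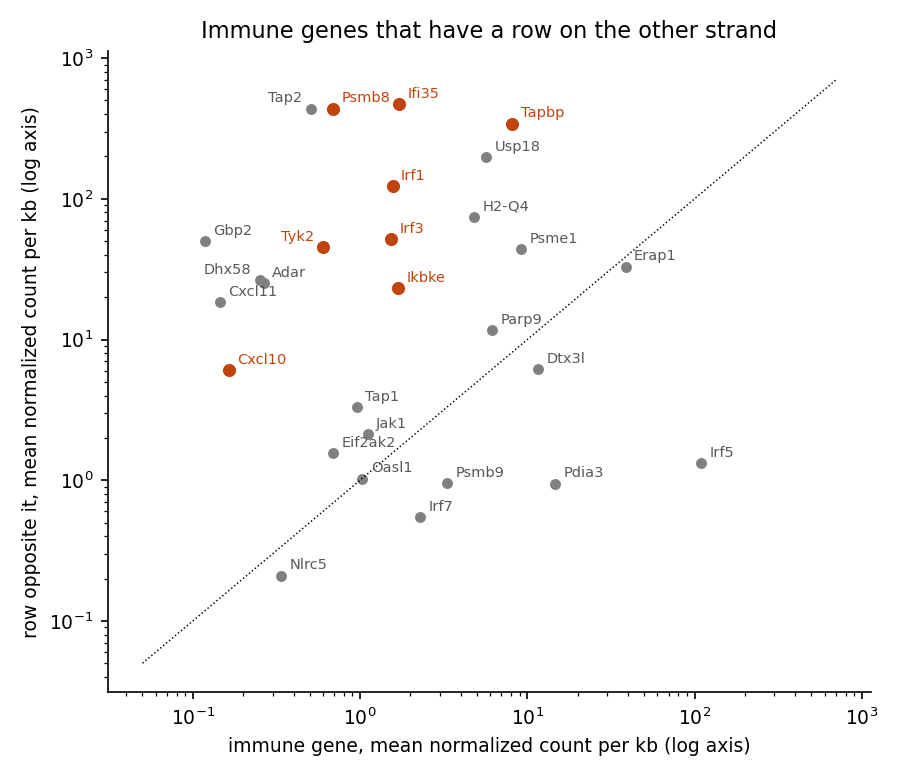
Mean normalized count per kb of the 28 pathway genes with an opposite-strand row (x axis, log) and of the row opposite each (y axis, log; of several rows the one with the highest mean normalized count, *Gm28914* for *Ikbke*), with the 8 immune genes of the listed rows in orange, other genes in grey and the line of equal level dotted. All 8 orange points lie above the line, and of the 20 grey points 12 lie above it, *Tap2* opposite the listed row *Gm20496* among them, and 8 below it.

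Liver identity of the libraries was checked with marker genes. All 10 hepatocyte markers were listed, from 14.1 per kb for *Hnf4a* to 2117 per kb for *Alb*. All 8 macrophage markers were listed, with a median of 1.499 per kb, from 0.181 for *Adgre1* to 20.95 for *Csf1r*. T and NK cell markers (4 of 6 listed), from *Cd8a* at 0.0256 to *Nkg7* at 0.166 per kb, and cholangiocyte markers, from *Krt19* at 0.0458 to *Sox9* at 0.102 per kb, all had mean normalized counts under 1. Dendritic cell markers (3 of 4 listed) lay between 0.0205 for *Flt3* and 1.93 per kb for *Xcr1*. Endothelial markers ranged from 0.258 for *Kdr* to 1.17 per kb for *Clec4g*, and stellate cell markers from 0.125 for *Col1a1* to 1.40 per kb for *Dcn*. *Clec4g* lay opposite a higher row, *Gm16553* at 171 per kb. So did *Stab2*, an endothelial marker at 0.498 per kb, opposite *Gm16268* at 25.1 per kb. *Csf1r* lay opposite a lower row, *Hmgxb3* at 0.357 per kb, and the other listed markers had no opposite row. These marker levels are also those of rows as counted, and the strand of the RNA behind them is uncertain. In bulk liver, a low level from few expressing cells and one from little RNA per cell cannot be told apart. Which cells gave the reads of the 8 rows was not tested.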

How the data were processed

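Poly(A) RNA of 32 mouse livers was made into strand-specific libraries and sequenced as single-end reads of 75 bases. Per the labels and the study's methods, the authors used HISAT2 (v2.1.0.13) for mapping to GRCm38 (Ensembl release 90), HTSeq for counting and DESeq2 for the fit. The strand setting and the depth per library are not given in the sources used here. The signal values deposited by the authors, and the only ones used, are each gene's normalized count (scaled by DESeq2's size factors) averaged over all libraries, the same in the 6 blocks of the table. The other 30 columns hold the authors' own comparisons of each knockout genotype with WT (log2 fold changes, standard errors, Wald statistics, P values) and were not used. Hence no test across groups was made, and the likeness of genes across samples could not be measured.

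Exons came from GENCODE M21 (GRCm38, Ensembl release 96), in which 21833 of 21880 gene identifiers were found and 47 were not. For the genes found, counts were divided by the length of the union of exons of all transcripts, and shares of all rows per kb are over these genes. Genes paired when exons on opposite strands overlapped by at least 1 base. The main coding transcript and its sequence were those of the same release. Python 3.11.15, numpy 2.4.6, scipy 1.17.1 and matplotlib 3.10.9 were used. The pairing was tested on simulated neighbouring genes of 1 exon each, placed to overlap at most at their ends. The overlap was right in 200 of 200 pairs. Nested genes and genes with several exons were not simulated.

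Members and gene lists were chosen with earlier results of these data known. Named were the 8 rows, the immune genes opposite, other genes overlapping a row, the 3 highest and 3 lowest pathway genes with and without an opposite row, and the highest and lowest gene per marker list. Of other pathway genes, 3 pairs with a higher opposite row, and those needed to explain a count, were named with their values known. So were the marker genes with an opposite row, and those rows. The result of 1 marker list is not reported here. Alternatives were no length correction, the longest transcript, 1 added to each count, minimum counts of 10 or none, at least 75 bases of overlap, and leaving out each row. Leaving out *Tap2* as well from the pathway counts, and the opposite row with the highest level per kb, were added after seeing the data.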

Additional observations from a re-analysis of the deposited data

How the results depend on the processing

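No paired analysis was possible because the only value used per gene is a mean over all libraries. A value counts as moved here when it changed by at least 1.5-fold, or for a share left its exact 95% interval. Of 14 alternatives for the listed rows' median log2 ratio (5.82), 12 did not move it. At least 75 bases of overlap is among these and could not have moved it, since all 8 rows meet it. The range was 5.39 to 6.25 when each row was left out. It fell to 4.22 without the length correction, where *Gm28914* and *Ikbke* were level (log2 ratio 0.02). It rose to 8.68 with the row's count set per kb of overlap only, an alternative chosen after seeing the data. With only noncoding rows, chosen likewise, it was 6.25. For all noncoding and coding pairs the median (4.78) became 2.71 without the length correction and 5.42 among pairs with a count of at least 10, where the share with a higher noncoding row became 88.4%. All 3 alternatives for the level of pathway genes with over without an opposite row (log2 1.21) stayed between 1.16 and 1.43, over the 3 lists pooled; within the antigen processing and presentation list the order is the reverse (medians of 4.06 with and 15.03 per kb without). Leaving *Tap2* out along with the 8 immune genes, chosen after seeing the data, gave 11 of 19 higher opposite rows, against 12 of 20 with it. A mean over libraries gives no counting error for a single gene, and genes at few reads such as *Cxcl10* are the least precise. No alternative with the other strand setting could be computed from the table.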
